A study of Homo sapiens with 3 samples.

Results

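The genes described here are 47 genes of the synapse, taken by name for what their proteins do: 12 vesicle membrane proteins, 13 calcium sensors and fusion proteins, 7 active zone scaffolds and priming factors, 12 adhesion and organizer proteins, and 3 vesicle recycling proteins. They were read out of a table of 58735 genes measured by RNA sequencing in H660 (NCI-H660), an established human cell line of neuroendocrine prostate cancer. Parental H660 cells received the vehicle DMSO, 2.5 µM JG231 or 5 µM JG231 for 24 h, with 1 library for each condition. JG231 is an allosteric inhibitor of the HSP70 chaperones, and the comparisons ask how its dose relates to RNA levels in these cells. All 3 libraries come from a single line, and both doses are set against the same DMSO library. With no replicates there was no test, SD or p-value, so "higher" and "lower" below compare single libraries.

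Levels are given in FPKM, fragment counts scaled to the length of the transcript and the size of the library. A gene entered a comparison when its level was over 1 FPKM in either library compared. Changes are log2 ratios after adding 0.1 FPKM to each level, and a gene is counted as lower or higher beyond 0.25 on that scale, as in the methods of the study. In place of a replicate error, each change is set beside a spread. It was taken from the 500 genes closest to it in mean FPKM, as the robust SD of their log2 differences between both JG231 libraries, so it also holds any real difference between the doses. Where a 95% interval is given, it is an exact interval of the log2 ratio from estimated fragment numbers, without the added 0.1 FPKM. It covers counting error only, since PCR copies are not independent molecules.

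The steps between low FPKM values gave about 16.1 M counted fragments for DMSO, 20.3 M for 2.5 µM and 24.04 M for 5 µM JG231. Mitochondrial transcripts made up 39.8%, 24.1% and 28.8% of all FPKM in these libraries. Of 8 neuroendocrine markers, 7 were above 0 in every library and NEUROD1 was listed at 0. Their summed level was 505, 233 and 204 FPKM from DMSO to 5 µM, so it was lower in both JG231 libraries, as were many synaptic genes below. The part of this in the levels below was not tested. The labels give the cell type as a prostatic adenocarcinoma, but the luminal prostate markers given here were under 1 FPKM in all 3 libraries. KLK3 was at 0.134, 0.0317 and 0 FPKM from DMSO to 5 µM and TMPRSS2 at 0.315, 0.273 and 0.116 FPKM. HOXB13 was at 0.861, 0.227 and 0 FPKM, FOLH1 was above 0 only at 2.5 µM (0.205 FPKM), and KLK2 was listed at 0 in all 3 libraries. Fibroblast markers summed to 0.840, 0.840 and 1.32 FPKM, and all 4 leukocyte markers were at 0. In bulk RNA, fewer cells of a kind and less RNA in each cell cannot be told apart.

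Neurons and endocrine cells store transmitter or hormone in vesicles, dock them at the plasma membrane and fuse them with it when calcium enters. SNARE proteins (SNAP25, STX1A and the VAMPs) drive the fusion, synaptotagmins sense the calcium, and complexins clamp and assist the SNARE complex. Scaffold proteins such as bassoon and piccolo mark the release site, UNC13 proteins prime vesicles there, and adhesion proteins such as neuroligins and neurexins hold the 2 sides of a synapse together. Neuroendocrine tumours express much of this set, and synaptophysin and NCAM1 are used as their markers in pathology.

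Many of these genes are known targets of REST, a repressor that binds a long element in neuronal genes and silences them outside neurons. Promoter windows of 300 bases, from 250 before to 50 after each RefSeq transcript start (GRCh38.p14), were found for 36 of the 47 genes, in 53 windows. The left part of the REST element, TTCAGCACC, stood in 0.376% of all 35116 promoter windows on either strand, and among the synaptic genes in those of SYN1 and UNC13A. The right part, GGACAGC, stood in 6.03% of all windows and in those of BSN, RAB3C, SYNJ1 and UNC13A. These stretches show where the matched letters stood, in genes higher (SYN1) and lower (BSN, UNC13A) in the JG231 libraries as deposited. SYN1 was at log2 0.39 at 2.5 µM and 0.28 at 5 µM, the second inside its spread of 0.32. Rescaled to a common sum without mitochondrial and small RNA genes, SYN1 was at 0.10 and -0.10. GGACAGC is short, and whether either part was more frequent in the synaptic genes than in all windows was not tested. A link between these letters and the changes was not tested. The capitals mark the matched letters, read 5′ to 3′ along the strand of the gene. In UNC13A they are the reverse complement of GGACAGC, and its left part lies 6 bases after the start and is not in the stretch.
SYN1 (chrX:47620052-47620107, minus strand): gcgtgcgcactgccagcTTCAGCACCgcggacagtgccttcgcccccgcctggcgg
BSN (chr3:49554326-49554392, plus strand): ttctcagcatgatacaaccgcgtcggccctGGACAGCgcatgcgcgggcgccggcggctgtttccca
UNC13A (chr19:17688355-17688393, minus strand): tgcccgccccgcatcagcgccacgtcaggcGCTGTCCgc
RAB3C (chr5:58583035-58583074, plus strand): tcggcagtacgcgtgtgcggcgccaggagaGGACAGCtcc
SYNJ1 (chr21:32728419-32728485, minus strand): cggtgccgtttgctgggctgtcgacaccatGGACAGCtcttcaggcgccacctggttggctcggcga

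In the SYN1 window the left part begins 233 bases before the transcript start. Its promoter also held a cAMP response element, TGACGTCA, as did that of LRRTM2, and 1.85% of all windows did. The E-box CACGTG was found in the UNC13A window and in 7.26% of all windows. The ATF4 composite element TGATGNAAT was in 0.991% of all windows and in none of the synaptic ones. A match is a description of the letters in the window, and binding was not measured.

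Of the 47 genes, 33 passed the level filter in at least 1 comparison with DMSO, 31 at 2.5 µM and 32 at 5 µM. At 2.5 µM, 5 genes passed through 1 of the 2 libraries only, 4 of them through DMSO. At 5 µM this held for 7 genes, 5 of them through DMSO, so these had to be lower to some degree. The 14 others stayed under 1 FPKM in all 3 libraries.

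At 5 µM JG231, 20 of the 32 genes were lower by more than 0.25 and 8 were higher. Among all 15765 genes that passed the filter, 45.1% were lower and 36.5% higher by that measure. At 2.5 µM, 18 of 31 were lower and 8 higher, against 43.4% lower and 36.4% higher among 15746 genes. Past 1 on the log2 scale, 12 genes were lower at 5 µM and 2 higher, where 24.3% and 14.7% of all genes were. All 5 genes that passed at 5 µM through DMSO alone (SYT2, BSN, PCLO, LRRTM4 and AMPH) are among these 12. At 2.5 µM, 8 were lower by more than 1 and 2 were higher, where 21.7% and 12.9% of all genes were. Of these 8, SYT2 and BSN passed through DMSO alone. Such genes had to be lower, though not by so much, and the whole table was filtered alike. At both doses the share of lower genes among the synaptic genes was above that of the whole table, and no test of that difference was possible.

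The median change of the synaptic genes was -0.57 at 2.5 µM and -0.53 at 5 µM, against -0.08 and -0.11 over all genes and 0.01 and -0.01 over protein-coding genes. Of the 30 genes that passed at both doses, which share the DMSO library, 18 were lower at both and 5 higher at both, where 38.6% and 27.9% of 15164 genes were. The change was larger than the gene's own spread for 19 of 31 genes at 2.5 µM and for 22 of 32 at 5 µM, shares near the 63.9% and 67.7% of all genes. When the libraries were rescaled to a common sum without mitochondrial and small RNA genes, the split between lower and higher genes became 24 to 5 at 2.5 µM (82.8% lower, against 69.2% as deposited) and 24 to 4 at 5 µM (85.7% lower, against 71.4%). The whole table shifted too, to 9089 genes lower and 3976 higher at 2.5 µM (56.2% and 24.6% of those that passed). At 5 µM it was 9706 lower and 3708 higher (60.1% and 23.0%). The 82.8% and 85.7% leave out genes within 0.25, so they are not on the base of these shares. Among the synaptic genes, CPLX1 (0.17), SYNGR3 (0.21), VAMP1 (0.01) and SYN1 (-0.10) at 5 µM and RAB3A (0.18), SYN1 (0.10) and SYT1 (0.07) at 2.5 µM were no longer higher by 0.25. Values under this setting are called rescaled below. The same rescaling moved the median gene with a mean of at least 1 FPKM to -0.29 and -0.40.

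**Figure D1:**
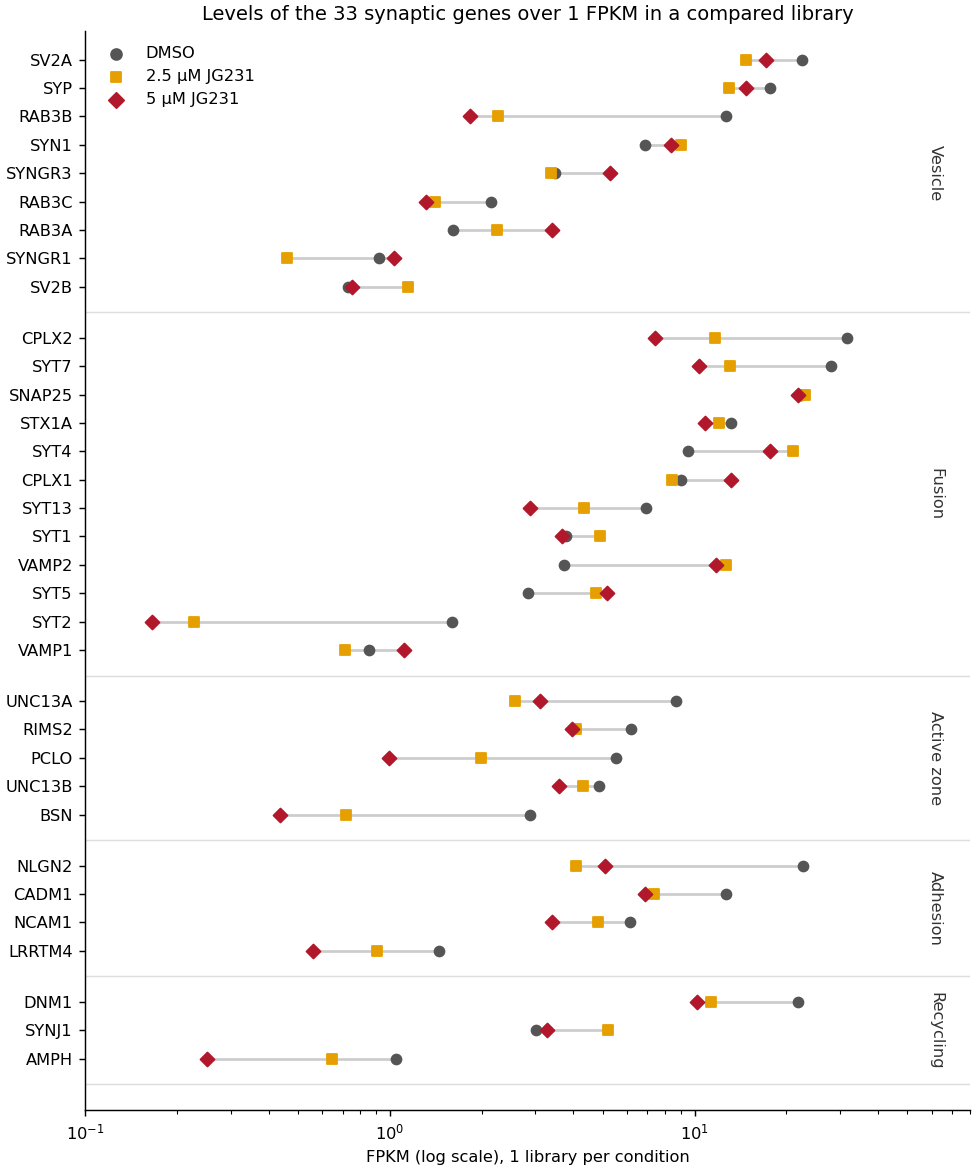
Level in FPKM (log scale) of each of the 33 synaptic genes over 1 FPKM in a compared library, grouped by role, with 1 point for each of the 3 libraries and a line from the lowest to the highest. RAB3B, CPLX2, SYT2, BSN, PCLO and NLGN2 lie far to the right in DMSO, while VAMP2 and SYT4 lie to the right in both JG231 libraries.

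Of the 8 vesicle membrane genes that passed, 4 were lower and 3 higher at each dose, which is near the shares of all genes (43.4% lower and 36.4% higher at 2.5 µM, 45.1% and 36.5% at 5 µM), and the group's median change was -0.24 at 2.5 µM and -0.05 at 5 µM. Their summed level was 69.3 FPKM in DMSO, 48.5 at 2.5 µM and 54.4 at 5 µM. Rescaled, the median change was -0.73 and -0.42, and with a mean of at least 1 FPKM it was -0.44 and -0.25.

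The largest difference of the group was in RAB3B, a small GTPase of secretory vesicles (chr1:51907956-51990700, minus strand; all coordinates here are GENCODE gene bounds on GRCh38). It was measured at 12.7 FPKM in DMSO, 2.26 at 2.5 µM and 1.83 at 5 µM. RAB3B was therefore 5.63 times lower at 2.5 µM and 6.93 times lower at 5 µM, or -2.44 and -2.73 on the log2 scale (spread 0.41). With the length trend described below removed, its changes were -2.08 and -2.09. The counting interval at 5 µM ran from -2.93 to -2.66, on about 2610 fragments in DMSO and 564 at 5 µM.

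Its paralogs differed by less. RAB3A, the main RAB3 of neurons, was at 1.61 FPKM in DMSO, 2.24 at 2.5 µM and 3.41 at 5 µM. The change at 2.5 µM (0.46) was inside its spread of 0.65, and at 5 µM RAB3A was 2.12-fold higher (log2 1.04), on 46.1 and 146 fragments and with a counting interval of 0.60 to 1.60. At 5 µM it was at 0.68 rescaled, just beyond its spread, and at 0.62, inside its spread, with the length trend removed. The gene lies opposite MPV17L2, and whether counting used the strand was not stated, so reads of the pair may be mixed. RAB3C was at 2.14, 1.41 and 1.31 FPKM, with changes of -0.57 and -0.67 inside its spread of 0.84 (-0.85 and -1.03, beyond it, when rescaled). RAB3A thus went from 9.76% of the summed RAB3A, RAB3B and RAB3C level in DMSO to 37.9% and 52.0%, while RAB3B went from 77.2% to 38.2% and 28.01%.

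The vesicle glycoprotein SV2A and synaptophysin were modestly lower. SV2A was at 22.5 FPKM in DMSO, 14.7 at 2.5 µM and 17.2 at 5 µM (log2 -0.61 and -0.39, spread 0.29). SYP (synaptophysin) was at 17.7, 13.0 and 14.8 FPKM, a change of -0.44 at 2.5 µM and -0.25 at 5 µM, the second within its spread of 0.28. At 5 µM, SV2A was at -0.77 and SYP at -0.63 when rescaled, and with the length trend removed SV2A was at -0.25, inside its spread, and SYP at -0.46, beyond it. For both genes the 2.5 µM library was the lowest. Synapsin I, which tethers vesicles to the cytoskeleton, was on the other side: SYN1 was at 6.88, 9.02 and 8.36 FPKM (0.39 and 0.28, spread 0.32). SYN1 overlaps ARAF and TIMP1 on the opposite strand, and its change at 5 µM became -0.10 under the rescaling without mitochondrial and small RNA genes.

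The remaining vesicle genes were at low levels. The synaptogyrin SYNGR3 was at 3.47, 3.39 and 5.26 FPKM, level at 2.5 µM (-0.03) and higher at 5 µM (0.59, spread 0.53), but inside its spread there when rescaled (0.21) or with the length trend removed (0.29). SYNGR1 was at 0.921, 0.459 and 1.03 FPKM and SV2B at 0.729, 1.14 and 0.751 FPKM, and each of their changes was inside the spread of 1.11 and 1.20.

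Of the calcium sensors and fusion proteins, 5 of 12 were lower and 5 higher at 5 µM (45.1% and 36.5% of all genes), and 4 of 11 were lower and 4 higher at 2.5 µM (43.4% and 36.4% of all genes). The median change was -0.10 at 2.5 µM and -0.04 at 5 µM, and the summed level was 133.4, 117 and 106 FPKM. Rescaled, the median change was -0.39 and -0.42.

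The core SNARE genes of the plasma membrane were close to their DMSO level as deposited. SNAP25 was at 22.4 FPKM in DMSO, 23.0 at 2.5 µM and 21.8 at 5 µM, with changes of 0.04 and -0.04 that were smaller than the spread of 0.25. STX1A (syntaxin-1A) was at 13.1, 12.0 and 10.8 FPKM, with changes of -0.12 and -0.28 inside a spread of 0.30. At 5 µM they were at -0.42 and -0.65 when rescaled, and at -0.33 and -0.56 with the length trend removed, all beyond the spread. The vesicle SNARE lay on the other side. VAMP2, or synaptobrevin-2 (chr17:8159149-8163546, minus strand), was at 3.73 FPKM in DMSO, 12.7 at 2.5 µM and 11.8 at 5 µM.

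VAMP2 was 3.40-fold higher at 2.5 µM and 3.16-fold higher at 5 µM (log2 1.74 and 1.63, spread 0.31). It was the only one of the 47 genes higher by more than 1 at both doses, and its counting intervals were 1.54 to 1.99 and 1.44 to 1.89. An unnamed protein-coding gene (ENSG00000263620) overlaps it on the same strand, so part of its level may belong to that gene. VAMP1 was at 0.851, 0.713 and 1.11 FPKM, with both changes inside its spread of 1.14.

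The 2 complexins parted. CPLX2 (chr5:175796310-175884021, plus strand), the most abundant of all 47 genes in DMSO, was at 31.7 FPKM there, 11.7 at 2.5 µM and 7.40 at 5 µM. It was 2.71 times lower at 2.5 µM and 4.28 times lower at 5 µM (log2 -1.43 and -2.08, spread 0.26), with a counting interval of -2.19 to -2.00 at 5 µM. CPLX1 was at 9.02, 8.40 and 13.2 FPKM, level at 2.5 µM (-0.10) and higher at 5 µM (0.54, spread 0.31). At 5 µM it was inside its spread when rescaled (0.17) and with the length trend removed (0.26), and at 2.5 µM it was lower, beyond its spread, when rescaled (-0.39). CPLX1 therefore made up 22.2% of the summed complexin level in DMSO, 41.8% at 2.5 µM and 64.0% at 5 µM, while the sum itself was 40.7, 20.1 and 20.6 FPKM.

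Among the synaptotagmins, SYT7 was the most abundant in DMSO and SYT4 in both JG231 libraries. SYT7, a high-affinity calcium sensor (chr11:61513714-61581148, minus strand), was at 27.95 FPKM in DMSO, 13.1 at 2.5 µM and 10.4 at 5 µM (log2 -1.09 and -1.42, spread 0.27). SYT4, an atypical member of dense-core vesicles (chr18:43267892-43277535, minus strand), was at 9.48, 21.0 and 17.6 FPKM (1.14 and 0.89, spread 0.26, rescaled 0.85 and 0.51). SYT7 made up 53.1% of the summed level of the 7 synaptotagmins in DMSO and 26.0% at 5 µM, and SYT4 18.02% and 44.2%.

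The other synaptotagmins were also divided. SYT13 was lower in steps, at 6.91, 4.33 and 2.87 FPKM (-0.66 and -1.24, spread 0.43). SYT2, a fast calcium sensor, was at 1.60 FPKM in DMSO but 0.227 and 0.166 in the JG231 libraries (-2.38 and -2.68, spread 1.29). With 1 FPKM added in place of 0.1 its changes were -1.08 and -1.16, inside the spread. SYT2 passed the filter through DMSO alone, rests on about 201 fragments there and 31.1 at 5 µM, and lies opposite PPP1R12B. SYT5 was higher at both doses, at 2.85, 4.76 and 5.17 FPKM (0.72 and 0.84, spread 0.53), but inside its spread when rescaled (0.44 and 0.47). SYT1, the main fast sensor of the forebrain, was at 3.79, 4.88 and 3.67 FPKM, with both changes (0.36 and -0.04) inside its spread of 0.54.

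**Figure D2:**
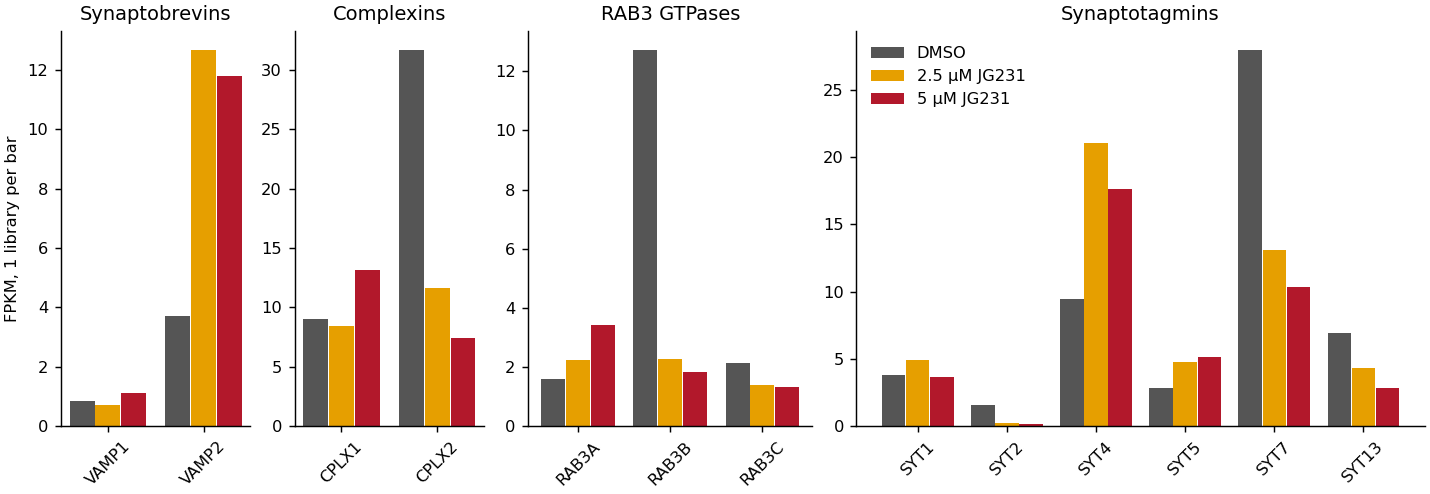
Level in FPKM (axis from 0) of the members of 4 paralog families, with 1 bar for each library: DMSO, 2.5 µM and 5 µM JG231. CPLX2, RAB3B and SYT7 have their tallest bar in DMSO (31.7, 12.7 and 27.95 FPKM), while VAMP2 and SYT4 have theirs at 2.5 µM (12.7 and 21.0 FPKM) and CPLX1 and RAB3A theirs at 5 µM (13.2 and 3.41 FPKM).

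Of the 5 active zone genes that passed the filter, 5 were lower by more than 0.25 at 5 µM and 4 at 2.5 µM, where 45.1% and 43.4% of all genes were. BSN passed at both doses, and PCLO at 5 µM, through DMSO alone, so they had to be lower there. The group's median change was -1.43 at 2.5 µM and -1.45 at 5 µM. Its summed level was 28.9 FPKM in DMSO, 14.1 at 2.5 µM and 12.4 at 5 µM.

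The giant scaffolds bassoon and piccolo had the largest changes of the group at 5 µM. BSN (chr3:49554477-49671549, plus strand) was at 2.87 FPKM in DMSO, 0.717 at 2.5 µM and 0.435 at 5 µM, which is 4.01 and 6.60 times lower (log2 -1.86 and -2.47, spread 0.95). PCLO (chr7:82754012-83162930, minus strand) was at 5.53, 1.996 and 0.992 FPKM, or 2.77 and 5.57 times lower (-1.43 and -2.37, spread 0.56). BSN rests on about 750 fragments in DMSO and 170 at 5 µM, and PCLO on about 2032 and 546, so counting error was small for both. With 1 FPKM added in place of 0.1, BSN was at -1.17 and -1.43 and PCLO at -1.71 at 5 µM. PCLO was also lower at 5 µM than at 2.5 µM by more than its spread (-0.94), while for BSN that step (-0.61) was not.

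The vesicle priming factors are UNC13A and UNC13B. UNC13A (chr19:17601336-17688365, minus strand) was at 8.67 FPKM in DMSO, 2.57 at 2.5 µM and 3.10 at 5 µM (log2 -1.72 and -1.45, spread 0.44), 3.38 and 2.79 times lower, and at -0.91 at 5 µM with the length trend removed. UNC13B was at 4.86, 4.29 and 3.60 FPKM, with changes of -0.18 and -0.42 inside its spread of 0.53, but at -0.80, beyond it, at 5 µM when rescaled. RIMS2, which links vesicles to calcium channels, was at 6.20, 4.08 and 3.95 FPKM (-0.59 and -0.64, spread 0.44). With the length trend removed, RIMS2 was inside its spread at both doses (-0.36 and -0.21). An unnamed gene lies opposite RIMS2.

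The adhesion and organizer genes that passed were lower at both doses, 4 of 4 each time (43.4% and 45.1% of all genes), with median changes of -0.70 and -1.05. Of these, LRRTM4 passed through DMSO alone, so it had to be lower. With no filter the medians were -0.35 and -0.87. The summed level of the group was 45.5 FPKM in DMSO, 18.9 at 2.5 µM and 17.3 at 5 µM. Most of that difference came from NLGN2, the neuroligin of inhibitory synapses (chr17:7404874-7419860, plus strand), which was at 22.7 FPKM in DMSO, 4.07 at 2.5 µM and 5.08 at 5 µM. It was 5.57 times lower at 2.5 µM and 4.46 times lower at 5 µM (log2 -2.45 and -2.13, spread 0.31), with counting intervals of -2.62 to -2.33 and -2.28 to -2.03.

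The cell adhesion molecules CADM1 and NCAM1 were lower by less. CADM1 was at 12.7, 7.38 and 6.88 FPKM (log2 -0.77 and -0.87, spread 0.33). With the length trend removed CADM1 was at -0.51 and -0.39. NCAM1, also called CD56, was at 6.16, 4.82 and 3.40 FPKM, a change inside its spread of 0.44 at 2.5 µM (-0.35) and outside it at 5 µM (-0.84). With the length trend removed NCAM1 was at -0.20 and -0.55, and rescaled at -0.64 and -1.21. LRRTM4, a postsynaptic organizer, was at 1.45, 0.907 and 0.561 FPKM (-0.62 and -1.23, spread 1.13) and passed through DMSO alone. With 1 FPKM added it was inside its spread at both doses (-0.36 and -0.65).

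Of the recycling genes, which bring vesicle membrane back after fusion, dynamin-1 was the most abundant. DNM1 was at 21.8 FPKM in DMSO, 11.3 at 2.5 µM and 10.2 at 5 µM (log2 -0.94 and -1.10, spread 0.28). It overlaps CIZ1 on the opposite strand. Amphiphysin, which recruits dynamin, was just over the filter in DMSO: AMPH was at 1.05, 0.644 and 0.251 FPKM (-0.62 and -1.71, spread 1.25), and inside its spread with 1 FPKM added (-0.32 and -0.71). The lipid phosphatase SYNJ1 (synaptojanin-1), which helps to strip the clathrin coat, was at 3.02, 5.20 and 3.27 FPKM, so it was higher at 2.5 µM (0.76, spread 0.50) and level at 5 µM (0.11), but inside its spread at 2.5 µM when rescaled (0.48). SYNJ1 was at 0.97 and 0.50 with the length trend removed. The group's summed level was 25.9, 17.2 and 13.7 FPKM and its median change -0.62 and -1.10, on 3 genes. The median at 2.5 µM is the change of AMPH, which passed through DMSO alone and so had to be lower. With a mean of at least 1 FPKM, which leaves AMPH out, the medians were -0.089 and -0.49.

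**Figure D3:**
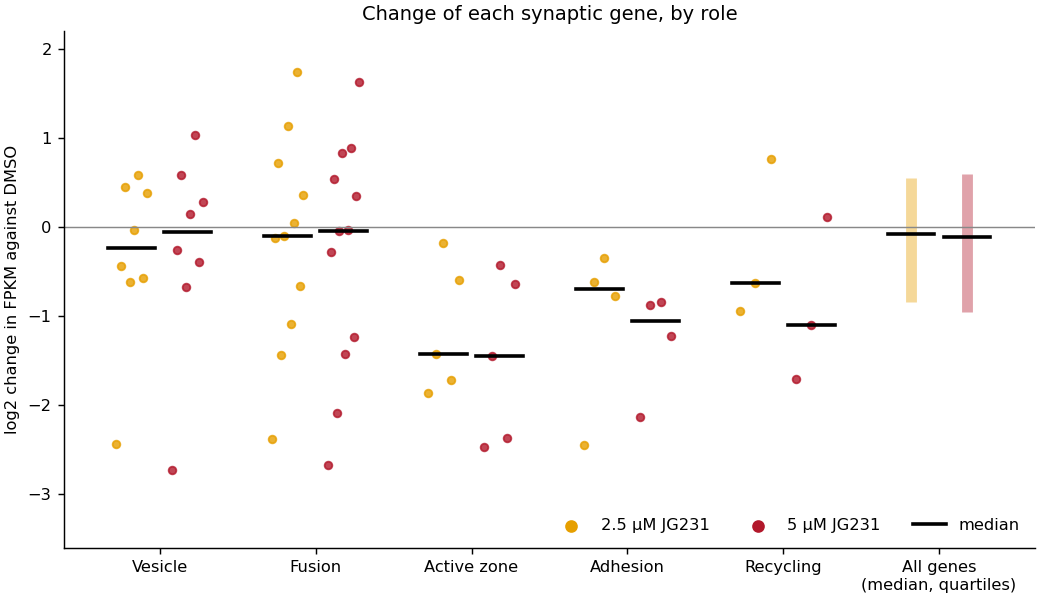
Log2 change in FPKM (0.1 FPKM added) at 2.5 µM and 5 µM JG231 against the same DMSO library, with 1 point for each synaptic gene over 1 FPKM in a compared library, by role, a black line at each median, and for all genes the median with a bar over the quartiles. Active zone and adhesion genes lie below 0 at both doses (medians -1.43 and -1.45, and -0.70 and -1.05), and vesicle and fusion genes lie on both sides.

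Between the doses, the synaptic genes differed less. Of 29 that passed the filter in the JG231 libraries, 10 were lower at 5 µM than at 2.5 µM by more than 0.25 and 7 were higher, where 30.1% and 26.8% of 14197 genes were. The median step was -0.10. Of the 29 steps, 9 were larger than the spread, which is itself taken from such steps, and 38.3% of all genes were. The 7 higher at 5 µM were RAB3A, SYNGR1, SYNGR3, VAMP1, CPLX1, UNC13A and NLGN2. The last pair were still lower than in DMSO, so their lowest level was at 2.5 µM.

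A strict order of DMSO over 2.5 µM over 5 µM was seen in 16 of the 33 genes, against 24.3% of 16347 genes. Among these 16, SYT2, BSN, LRRTM4 and AMPH were over 1 FPKM in DMSO alone. The filter had thus fixed DMSO as their highest library, and the whole table was filtered alike. The opposite order was seen in RAB3A and SYT5 alone, 2 of 33 against 20.5%. Neither order asks for a least step. Of the 16 genes, CPLX2, SYT7, SYT13, PCLO and NCAM1 were lower at 5 µM than at 2.5 µM by more than their spread. In the rest of the 16 that step was inside the spread, as in BSN (-0.61), LRRTM4 (-0.61), AMPH (-1.09) and RIMS2 (-0.05).

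The changes went with the length of the transcript. The canonical transcripts of the 47 genes ran from 1496 bases (RAB3A) to 20284 bases (PCLO), with a median of 5182, against a median of 3276.5 for the protein-coding genes that passed at 5 µM. The 47 were not filtered by level for this, so the medians are of unlike sets. Over all protein-coding genes the change was lower in longer transcripts, with a Spearman correlation across genes of -0.24 at 2.5 µM and -0.35 at 5 µM. Over the synaptic genes it was -0.48 (31 genes) and -0.67 (32 genes). Genes within a library are not independent replicates, and all points share the DMSO library, so no p-value is given.

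Protein-coding genes at least as long as BSN had a median change of -0.46 at 2.5 µM (56 genes) and -0.82 at 5 µM (55 genes). With the length trend of all protein-coding genes removed, BSN was at -1.44 and -1.76 and PCLO at -0.95 and -1.57, so both were below the trend at their length. UNC13B, almost as long, was at 0.22 and 0.26, on the other side of 0 from its deposited changes at both doses. The median of the active zone group became -0.95 and -0.91, that of the adhesion group -0.60 and -0.91, and that of all the synaptic genes -0.36 at both doses. VAMP2 stayed at 1.54 and 1.36 and SYT4 at 1.16 and 0.97. Length itself, or RNA quality that differs between the libraries, was not tested.

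**Figure D4:**
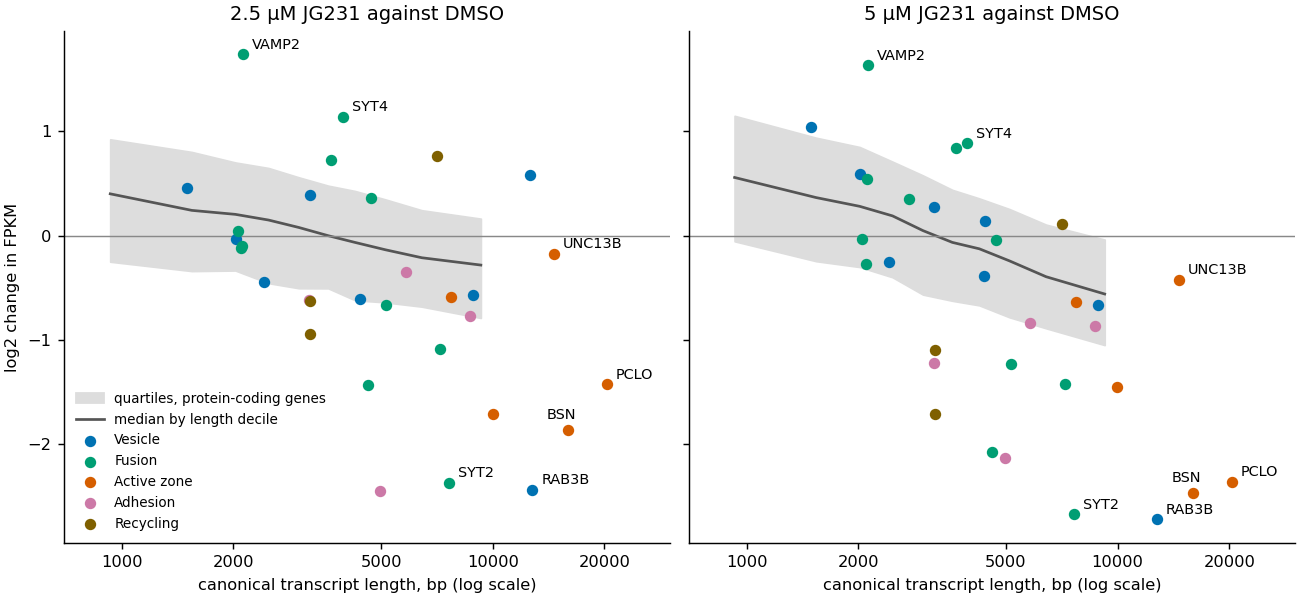
Log2 change in FPKM at 2.5 µM and 5 µM JG231 against DMSO by canonical transcript length in base pairs (log scale), with 1 point for each synaptic gene that passed the filter. The line is the median of protein-coding genes by length decile and the band their quartiles, and it runs downward with length, with BSN, PCLO and RAB3B below it and VAMP2 and SYT4 above it.

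The 14 genes under 1 FPKM in every library reached at most 0.947 FPKM. SYN2, SV2C and LRRTM3 were listed at 0 in all 3 libraries, where 3 fragments would correspond to 0.0106 to 0.0295 FPKM. SYT11, RIMS1, NRXN2, LRRTM1 and NCAM2 were listed at 0 in at least 1 library and at no more than 0.0973 FPKM in any. The other 6 (SYN3, ERC2, NLGN1, NLGN3, NRXN3 and LRRTM2) were between 0.184 and 0.947 FPKM, and 4 of them were lower in both JG231 libraries than in DMSO. ERC2, an active zone scaffold, was at 0.729, 0.353 and 0.367 FPKM and the neuroligin NLGN1 at 0.943, 0.474 and 0.389 FPKM, but at such levels the spread between the JG231 libraries was over 1 on the log2 scale. In all, 12 of the 47 genes overlap another protein-coding gene, and their levels may hold reads of that neighbour.

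A wider list covered 125 other genes of the same machinery. Of the 82 that passed the filter, 39 were lower and 22 higher at 2.5 µM (43.4% and 36.4% of all genes), and 49 were lower and 22 higher at 5 µM (45.1% and 36.5% of all genes), with median changes of -0.21 and -0.43. Of its 19 adhesion genes that passed, 17 were lower and 1 higher at 2.5 µM and 18 lower and 1 higher at 5 µM, with medians of -0.85 and -1.21 (-0.73 and -0.82 with the length trend removed). Its other active zone genes had medians of -0.27 and -0.44 (-0.11 and -0.14 with the length trend removed), and its recycling genes of -0.01 and 0.08.

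By a rule of size, 6 of these genes are named. DOC2A, a soluble calcium sensor, was at 12.1 FPKM in DMSO, 3.33 at 2.5 µM and 4.18 at 5 µM. The adhesion gene LRFN3 was at 14.8, 6.21 and 4.72 FPKM, and the receptor phosphatase PTPRF at 52.2, 23.1 and 19.2 FPKM. All 3 were lower at both doses by more than their spread, but they were picked for the size of their change. On the other side, the clathrin light chain CLTB was at 15.9, 33.6 and 33.1 FPKM, the endosomal SNARE VAMP4 at 4.55, 9.57 and 10.04 FPKM, and CADPS2, which primes dense-core vesicles, at 4.25, 8.49 and 9.97 FPKM.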

How the data were processed

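Total RNA of H660 cells was made into stranded mRNA libraries, 1 each for DMSO, 2.5 µM and 5 µM JG231, assigned by the sample titles. The deposited values are FPKM per gene, computed by the authors. The submitters' processing notes name HISAT2 and featureCounts on GRCh38 (hg38), with no versions. The study's methods instead name TopHat-Cufflinks, HISAT and StringTie, and which route made the values is not settled here, so fragment numbers and intervals are estimates. Whether counting used the strand was not given in the sources used here. FPKM are not counts, and with 1 library per condition no model was fitted.

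Genes were matched to GENCODE release 44 (58207 of 58735). A pseudocount of 0.1 FPKM, a filter of over 1 FPKM in either library compared and log2 limits of 0.25 and 1 were used. Fragments were estimated from FPKM, merged exon length and the step between low values, which gave whole numbers within 0.05 for 90.7%, 88.2% and 85.7% of values under 20 fragments in genes with 1 transcript (DMSO, 2.5 µM, 5 µM). Intervals are exact (Clopper-Pearson, 95%). A fragment number of a gene with several transcripts is approximate. The spread is 1.4826 times the median absolute deviation. The length trend is a lowess curve (fraction 0.3) on log length. Promoter windows came from RefSeq. The scripts, tested on simulated data, ran in Python 3.11.15 with pandas 2.3.3 and numpy 2.4.6, statsmodels 0.14.6 for the trend, scipy 1.17.1 for the intervals and matplotlib 3.10.9.

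The 47 genes, the wider gene list, the markers and the motifs were chosen with earlier results of these data known. Genes with a mean of at least 1 FPKM are given in each library, and of the wider list the 3 genes with the largest changes in each direction, ranked by the smaller change of both doses, with a mean of at least 5 FPKM. Alternatives covered the pseudocount, the filter, the scaling and the length trend. Protein sequences were not used here, so the planned identity within families was not computed. All 3 libraries were used. Some markers of the luminal list are not reported here.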

Additional observations from a re-analysis of the deposited data

How the results depend on the processing

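No paired analysis was possible because each condition has 1 library, and no replicate could be left out. Of 21 counts and medians under 10 alternatives, 164 values kept within their tolerance (0.25 for medians, 1.5 times for counts) and 44 moved. With a common sum without mitochondrial and small RNA genes, the medians at 2.5 and 5 µM were -0.88 and -1.01 for all synaptic genes, -0.73 and -0.42 for vesicle, -0.39 and -0.42 for fusion, -1.71 and -1.83 for active zone, -1.06 and -1.42 for adhesion and -0.89 and -1.47 for recycling genes. There, 5 and 4 genes were higher by over 0.25 and 1 at each dose by over 1, and SYN1 at 5 µM turned to -0.10. With a common sum of all genes, the vesicle median at 5 µM was -0.38 and 1 gene was higher by over 1. With the length trend removed, the active zone medians were -0.95 and -0.91, 1 gene was higher by over 1 at 5 µM, and UNC13B at 5 µM turned to 0.26. With a mean of at least 1 FPKM, the recycling medians were -0.089 and -0.49. With a mean of at least 5 FPKM, the adhesion medians were -1.61 and -1.503, the vesicle medians -0.53 and -0.32 and the recycling median at 2.5 µM -0.94. There, 8 and 9 genes were lower by over 0.25 and 4 and 5 by over 1, while 3 and 4 were higher by over 0.25 and 1 at 5 µM by over 1. With no filter, the active zone medians were -0.87 and -0.83, and at 2.5 µM the adhesion median was -0.35 and that of all synaptic genes -0.29. With a pseudocount of 1, the active zone median at 2.5 µM was -1.12, the adhesion median at 5 µM -0.75, the recycling medians -0.32 and -0.71, and 1 gene was higher by over 1 at 5 µM. The stricter filters leave fewer genes, and for the other settings the cause was not tested. Of the single genes, 554 values kept within their spread, 29 moved and the 2 named above, whose deposited change was beyond 0.25, reversed in sign. A change of filter, or leaving out genes listed at 0, cannot alter the change of a single gene. The values kept under the 3 filters (54, 28 and 63) and with genes at 0 left out (63) were thus fixed in advance. Centring took off a median of only 0 at 2.5 µM and -0.008 at 5 µM, so its 63 values could hardly move.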
